A study of Mus musculus with 6 samples.

Results

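The extracellular proteases of the matrix metalloproteinase (MMP), ADAM and ADAMTS families, the ADAMTS-like proteins and the tissue inhibitors of metalloproteinases (TIMPs) were followed in 3 cell populations of the mouse hair follicle. Members were all genes whose symbol on the platform was Mmp, Adam, Adamts, Adamtsl or Timp with a number and at most 1 trailing letter. Of 18193 genes with a probe set of their own, 70 met this rule: 18 Mmp, 28 Adam, 15 Adamts, 5 Adamtsl and 4 Timp genes. Each gene was read through its brightest probe set, the summary of several short probes for 1 transcript. The rule used symbols and no measured difference, but it was set with earlier results of these data known.

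Cells came from the back skin of untreated female CD-1 mice and were separated by flow cytometry, with 2 Affymetrix arrays for each group. HF-TACs, the transient-amplifying cells of the hair matrix, were taken at 28 to 30 days after birth with GFP, integrin α6 and ephrinB1 as sorting markers. aHF-SCs, activated hair follicle stem cells, were of the same ages and were sorted on GFP, integrin α6 and CD34. qHF-SCs, stem cells at rest, were taken at 52 to 60 days and sorted on integrin α6 and CD34 alone. The source of the GFP, the side of each gate and the number of animals are not given in the labels, so the p-values cover the spread between arrays, which may be technical. Age and gate differ together with cell state against qHF-SC and cannot be told apart from it; between HF-TAC and aHF-SC the gate differs.

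MMPs are zinc proteases that cut collagens, basement membrane and other matrix proteins, and TIMPs block their active site. Membrane-bound MMP14 activates pro-MMP2 on the cell surface in a complex that needs TIMP2 as the bridge. ADAMs are membrane-anchored and release the outer part of surface proteins such as EGF-family ligands and Notch receptors. ADAMTSs are secreted, and their best known substrates are large proteoglycans and procollagens, while ADAMTS-like proteins share their matrix-binding parts but lack the protease. In skin these enzymes act in the growth and regression of the follicle, when its lower part moves through the dermis.

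Marker transcripts of the labels were read in each comparison. All 10 bulge stem cell markers fell in HF-TAC against aHF-SC. Of 10 matrix and hair lineage markers 7 rose there, as did all 7 measured markers of dividing cells. Cd34, among the bulge markers, encodes a sorting marker of both stem cell groups, so its fall gives no separate support. In HF-TAC against qHF-SC 9 bulge markers fell, and 8 matrix and all 7 dividing cell markers rose. In aHF-SC against qHF-SC 6 dividing cell and 2 matrix markers rose, and the bulge markers Cd34 and Postn fell. Of 9 immune markers 2 were dim in HF-TAC, 3 in aHF-SC and 3 in qHF-SC, and 0 passed in any comparison by limma (3 at an unadjusted p under 0.05 in HF-TAC against aHF-SC, 2 against qHF-SC and 1 in aHF-SC against qHF-SC). Of 7 endothelial markers 6, 5 and 6 were dim in the same groups. Tek rose in aHF-SC against qHF-SC and fell in HF-TAC against aHF-SC. Cdh5, dim in both groups, fell in HF-TAC against qHF-SC. HF-TAC and qHF-SC carried more differentiated keratinocyte markers (24777 to 40753 and 27554 to 28104) than aHF-SC (13300 to 15811). Replicates correlated across genes at r from 0.989 to 0.992 on the log2 scale. Replicates lay over 2-fold apart for 2, 2 and 3 members in HF-TAC, aHF-SC and qHF-SC: Adamts1 and Mmp2, then Adamtsl4 and Mmp2, then Adamts3, Adamts20 and Timp3. Intensities, the deposited brightness of a probe set on a linear scale, had medians of 22.8 to 23.9 per array. A gene was called dim in a group where both arrays lay at or below their own median over all probe sets; this is not a detection call.

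Of the 70 members, 36 were dim in all 3 groups, with intensities from 4.04 to 22.9. Over all genes tested 5328 of 18193 (29.3%) were dim throughout, against 51.4% of members. The dim members included Mmp9, the second gelatinase, at 17.4 and 13.4 in HF-TAC, 14.7 and 14.1 in aHF-SC and 14.3 and 15.2 in qHF-SC. All 4 collagenase genes measured (Mmp1a, Mmp1b, Mmp8 and Mmp13) were dim too. Of the 16 ADAM genes known mainly from testis or epididymis 14 were dim in every group, and so were 8 of 9 spermatid markers. A level near background says little about absence, and a difference between dim groups could not be measured well here.

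**Figure D1:**
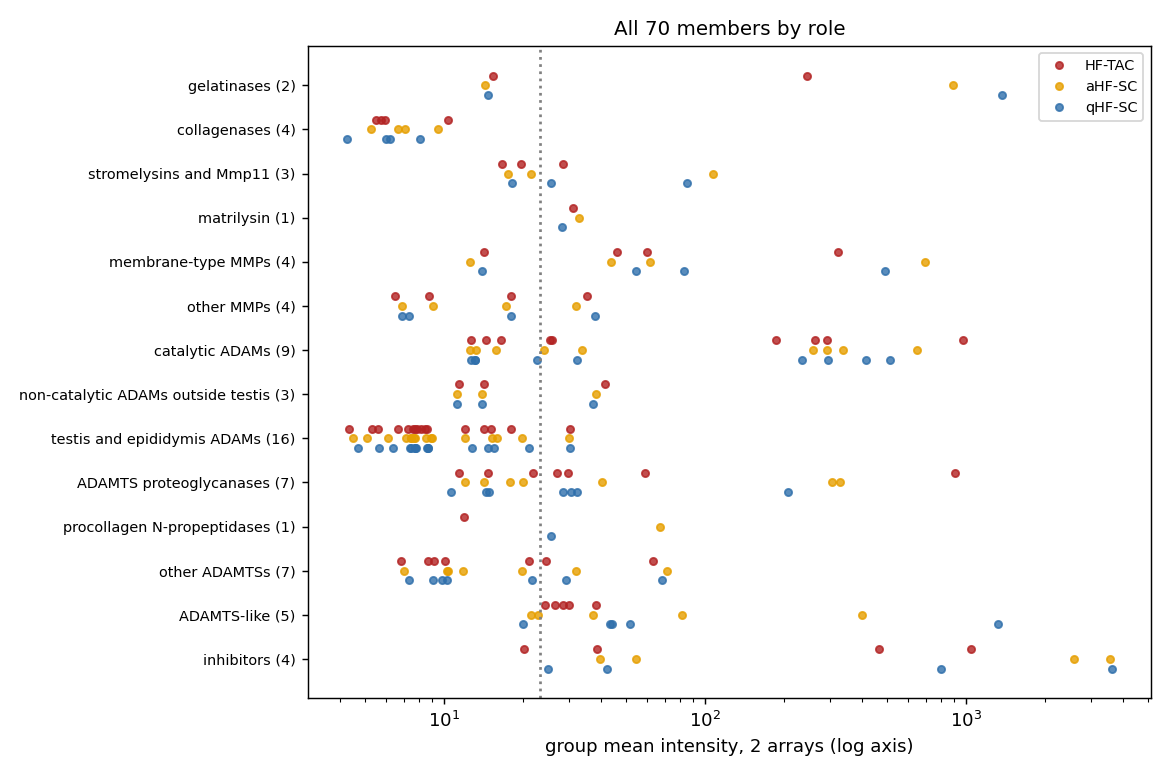
Group mean intensity (log axis, 2 arrays each) of all 70 members, by role, with the number of members in brackets and points for HF-TAC, aHF-SC and qHF-SC from top to bottom in each row. The dotted line is the middle of the array medians, between 22.8 and 23.9. Collagenases and most testis ADAMs lie left of it in every group. Probe sets differ in how brightly they bind, so positions may be compared between groups for 1 gene and not between genes.

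A run of neighbouring family genes in the RefSeq gene order of GRCm38.p6 holds 9 members: Mmp13, Mmp12, Mmp1b, Mmp3, Mmp1a, Mmp10, Mmp8, Mmp20 and Mmp7. Family genes in the run that were not members, if any, are left out of this list and of the counts below. All 9 members lay between 4.04 and 33.7 on every array, 7 of the 9 were dim in all groups, and 0 passed in any comparison. The sequence before their start sites is shown beside that of members that did pass, because the letters differ between these sets. RefSeq promoters of GRCm38.p6 were found for 41 of the 70 members. The 250 bases before each start were searched on both strands for TGANTCA, the AP-1 motif, which reads the same on either strand, and for GGGCGG, the GC box bound by Sp1 (CCGCCC on the other strand). In the stretches below, 120 bases before the start are written 5′ to 3′ in the direction of the gene, and capitals mark either motif (the 2 others searched, named after the sequences, do not occur in them).
Mmp13 (chr9:7272394-7272513, plus strand): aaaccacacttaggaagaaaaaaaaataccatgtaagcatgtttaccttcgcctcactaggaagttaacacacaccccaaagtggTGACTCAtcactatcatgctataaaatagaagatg
Mmp3 (chr9:7445702-7445821, plus strand): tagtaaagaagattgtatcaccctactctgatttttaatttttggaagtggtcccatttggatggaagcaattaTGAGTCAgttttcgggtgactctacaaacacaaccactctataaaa
Mmp10 (chr9:7502222-7502341, plus strand): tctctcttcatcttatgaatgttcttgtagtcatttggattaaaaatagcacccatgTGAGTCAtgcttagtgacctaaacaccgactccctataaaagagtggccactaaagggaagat
Mmp14 (chr14:54431478-54431597, plus strand): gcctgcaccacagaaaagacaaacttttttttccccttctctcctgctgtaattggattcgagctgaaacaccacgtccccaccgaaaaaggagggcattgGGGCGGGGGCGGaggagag
Timp2 (chr11:118355412-118355531, minus strand): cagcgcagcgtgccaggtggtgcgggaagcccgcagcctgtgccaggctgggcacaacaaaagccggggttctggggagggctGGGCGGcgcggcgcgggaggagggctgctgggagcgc
Adamtsl4 (chr3:95687918-95688037, minus strand): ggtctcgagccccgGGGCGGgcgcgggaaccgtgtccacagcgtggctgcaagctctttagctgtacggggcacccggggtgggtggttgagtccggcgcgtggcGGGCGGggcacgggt
The letters TGANTCA stood before 8 of the 9 clustered members, Mmp8 being without them, and before 6.75% of all 32851 promoters. Each of the 9 was counted where any of its promoters matched. GGGCGG stood before 0 of the 9 and before all 13 members with a promoter in the table that passed in a comparison, against 32.7% of all promoters. Among promoters of genes above the median in at least 1 group the share with GGGCGG was 55.8%, and among genes dim throughout it was 27.9%. GGGCGG stood before 17 of the 22 such members with a promoter above the median, among them Adam17, Adamtsl2, Mmp24 and Timp3, which did not pass. G and C made up 37.2% to 53.2% of the 250 bases before the 9 clustered members. Before the 13 that passed they made up 54.4% to 80.0%. The part of base composition in these counts was not tested. The cluster was found by gene order and the passing members were chosen by their differences, so these counts describe the sets, and a match of letters is not a bound site. TCAAAG, the TCF/LEF core, and TGACGTCA, the CRE motif, were searched in the same way and stood before 0 of those 13 members, against 13.8% and 1.55% of all promoters.

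Differences were tested with limma on log2 intensity in 1 fit of all 6 arrays, with Benjamini-Hochberg adjustment over 18193 genes and a threshold of 0.05; every adjusted p is from this test. SE is its standard error on the log2 scale. Arrays carry the replicate numbers of the labels, and where 1 is left out the group's lone array is assumed to vary like the others. In HF-TAC against aHF-SC 2 members rose and 8 fell, where 8.97% of all genes rose and 8.57% fell. In HF-TAC against qHF-SC 4 rose and 8 fell, with 13.4% and 12.9% over all genes. In aHF-SC against qHF-SC 1 rose and 2 fell, with 3.07% and 3.21%. The members' shares were 2.86% and 11.4%, 5.71% and 11.4%, and 1.43% and 2.86% in the same order, so none of the 6 stood far above the share over all genes. The median log2 difference of the members was -0.05, -0.04 and 0.05, against -0.01, -0.01 and 0.01 over all genes. In all, 17 members passed in at least 1 comparison. These comparisons share arrays, so their calls are not independent of each other. With 2 arrays a group, non-overlap of groups was common among members that did not pass, and it is given below as description alone. In bulk RNA fewer cells of a type and less RNA per cell cannot be told apart, and this holds for every difference that follows.

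**Figure D2:**
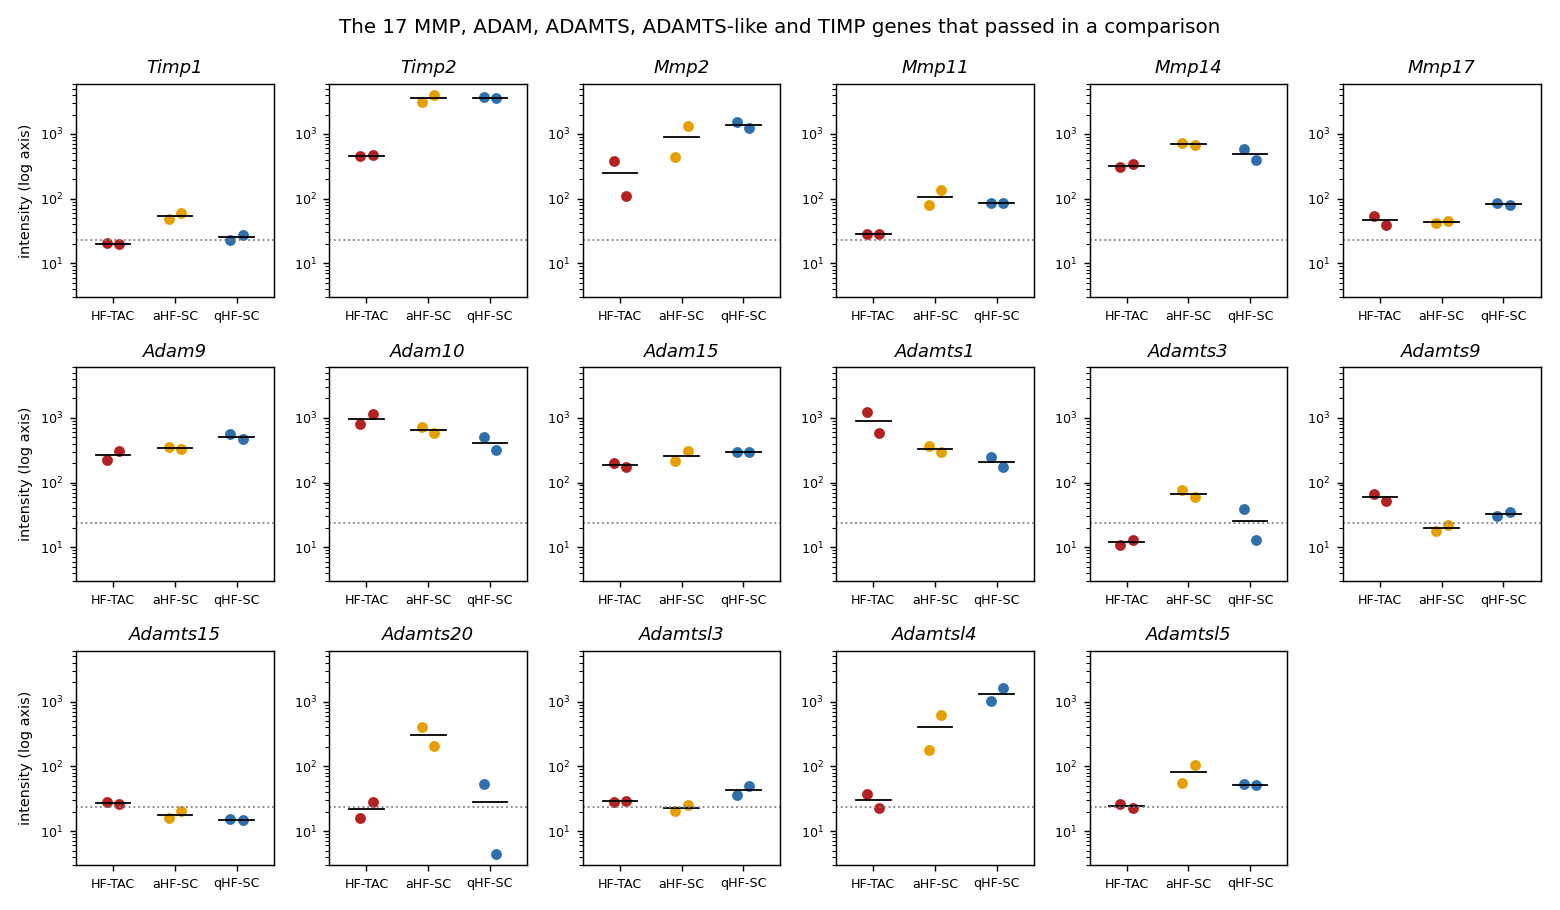
Intensity on each array (points, log axis) and group mean (short lines) of the 17 members that passed in at least 1 comparison, for HF-TAC, aHF-SC and qHF-SC from left to right. The dotted line is the middle of the array medians. Timp2 lay at 456 and 469 in HF-TAC and at 3082 or more on every stem cell array, and Adamts20 reached 405 and 206 in aHF-SC.

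Of the 4 inhibitors, 2 fell in HF-TAC against aHF-SC, where 8.57% of all genes fell. Timp2, the bridge in pro-MMP2 activation as well as an inhibitor, stood at 456 and 469 in HF-TAC, 3082 and 4014 in aHF-SC and 3705 and 3560 in qHF-SC. The HF-TAC arrays lay far below all 4 stem cell arrays, and the stem cell groups overlapped. Timp2 fell 7.61-fold in HF-TAC against aHF-SC (-2.93 ± 0.17 SE, adjusted p = 0.000207) and 7.85-fold against qHF-SC (-2.97 ± 0.17 SE, adjusted p = 7.8e-05). Between aHF-SC and qHF-SC the log2 difference was -0.05, with a 95% interval from -0.45 to 0.36. Timp2 has 6 probe sets; the 4 others above the medians were lower in HF-TAC as well, by log2 differences from -2.83 to -1.50 against aHF-SC and -2.96 to -1.15 against qHF-SC. Averaged over all 6, the values were -1.85 and -1.83, and both still passed. For aHF-SC against qHF-SC the 4 other probe sets above the medians did not agree, with log2 differences from -0.52 to 0.43.

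Timp1, a secreted inhibitor of most soluble MMPs, peaked in aHF-SC at a low level. It stood at 20.5 and 20.0 in HF-TAC, which is dim, at 48.4 and 60.6 in aHF-SC and at 23.2 and 27.0 in qHF-SC. The aHF-SC arrays lay above all others. Timp1 fell 2.67-fold in HF-TAC against aHF-SC (-1.42 ± 0.17 SE, adjusted p = 0.00214) and rose 2.16-fold in aHF-SC against qHF-SC (1.11 ± 0.17 SE, adjusted p = 0.0158). The first size is uncertain, since HF-TAC was dim. The rise missed the threshold without qHF-SC array 1 (adjusted p = 0.0744) or 2 (0.079) or without aHF-SC array 2 (0.0717). The other comparison did not pass (-0.31 ± 0.17 SE in HF-TAC against qHF-SC, adjusted p = 0.269).

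Timp3, the matrix-bound inhibitor that also blocks ADAM17 and several ADAMTSs, had its highest values in aHF-SC. It stood at 709 and 1381 in HF-TAC, 2817 and 2365 in aHF-SC and 1186 and 419 in qHF-SC. The aHF-SC arrays did not overlap with either other group, but the qHF-SC replicates lay 2.83-fold apart. The log2 difference of aHF-SC against qHF-SC was 1.87 ± 0.49 SE and missed the threshold (adjusted p = 0.0755), as did that of HF-TAC against aHF-SC (-1.38 ± 0.49 SE, adjusted p = 0.106). The first passed averaged over the 4 probe sets (2.24, adjusted p = 0.0389), with 75th percentile scaling (1.86, 0.0338) or without qHF-SC array 1 (2.62, 0.0245). The second passed only in a fit without the qHF-SC arrays or without 1 of them (adjusted p = 0.0386 in each). All 4 probe sets gave the same sign in both comparisons. Timp4 stood between 36.0 and 43.0 on all 6 arrays, and its 3 log2 differences lay between -0.13 and -0.03 (adjusted p from 0.634 to 0.933).

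The gelatinase Mmp2 was lower in HF-TAC, with replicates far apart. It stood at 382 and 109 in HF-TAC, 443 and 1343 in aHF-SC and 1512 and 1243 in qHF-SC. The HF-TAC arrays lay below the other 4, and the stem cell groups overlapped. Mmp2 fell 6.73-fold in HF-TAC against qHF-SC (-2.75 ± 0.65 SE, adjusted p = 0.0189); its second probe set gave -2.79. This call was lost without qHF-SC array 1 (-2.61) or 2 (-2.89) or without HF-TAC array 2 (-1.85). Without HF-TAC array 1 the difference was larger, at -3.66. Against aHF-SC the difference was -1.92 ± 0.65 SE and did not pass (adjusted p = 0.0923); without aHF-SC array 1 (-2.72, 0.0484) or HF-TAC array 1 (-2.83, 0.0215) it did. Mmp2 is widely known from fibroblasts. The 9 dermal fibroblast markers summed to between 3855 and 6373 per HF-TAC array, 671 and 1077 in aHF-SC and 611 and 655 in qHF-SC, a sum led in HF-TAC by Dcn, which rose by 6.10 on the log2 scale against aHF-SC and 7.73 against qHF-SC. The list's median log2 difference was -0.63 in HF-TAC against aHF-SC, where Fbln2 and Loxl1 fell, and -0.14 against qHF-SC, where Fbln2 and Col1a2 fell. Of the 9, 4 were dim in HF-TAC, 3 in aHF-SC and 4 in qHF-SC, with Pdgfra, Lum and Dpt dim throughout. The part of these cells in the Mmp2 result was not tested.

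Mmp14, the membrane-type enzyme that activates pro-MMP2, was highest in aHF-SC. It stood at 308 and 338 in HF-TAC, 728 and 669 in aHF-SC and 585 and 392 in qHF-SC, with no overlap between the groups. Mmp14 fell 2.16-fold in HF-TAC against aHF-SC (-1.11 ± 0.21 SE, adjusted p = 0.0116). Its other 2 probe sets gave -1.05 and -0.97. The call was lost without aHF-SC array 1 (adjusted p = 0.06) or 2 (0.0529). Against qHF-SC the HF-TAC difference of -0.57 ± 0.21 SE did not pass (adjusted p = 0.0944), but did with quantile normalization (-0.64, 0.0492) or without qHF-SC array 2 (-0.86, 0.0361); the other probe sets gave 0.15 and -0.17. The aHF-SC against qHF-SC difference was 0.54 ± 0.21 SE (adjusted p = 0.205), and the other probe sets gave larger ones of 1.12 and 0.88.

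Mmp17, a membrane-type MMP held by a lipid anchor, was highest at rest. It stood at 53.1 and 39.1 in HF-TAC, 41.6 and 45.8 in aHF-SC and 86.2 and 80.2 in qHF-SC. The qHF-SC arrays lay above the other 4. Mmp17 fell 1.82-fold in HF-TAC against qHF-SC (-0.87 ± 0.19 SE, adjusted p = 0.0129) and 1.90-fold in aHF-SC against qHF-SC (-0.93 ± 0.19 SE, adjusted p = 0.0341). The first was lost without qHF-SC array 1 (adjusted p = 0.076) or 2 (0.0561) or without HF-TAC array 2 (0.0586). The second was lost without qHF-SC array 1 (0.147) or 2 (0.159) or without aHF-SC array 1 (0.149) or 2 (0.102). The other membrane-type genes, Mmp16 and Mmp24, did not pass in any comparison (adjusted p from 0.593 to 0.963).

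Mmp11, or stromelysin-3, which furin activates inside the cell, was low in HF-TAC. It stood at 28.7 and 28.3 in HF-TAC, 78.7 and 135 in aHF-SC and 85.9 and 85.0 in qHF-SC. The HF-TAC arrays, just above the array medians, lay below all 4 stem cell arrays. Mmp11 fell 3.62-fold against aHF-SC (-1.86 ± 0.25 SE, adjusted p = 0.00293) and 3.0-fold against qHF-SC (-1.58 ± 0.25 SE, adjusted p = 0.00331), and both calls held whichever array was left out. Furin also fell in HF-TAC against aHF-SC, with intensities of 236 ± 6.07 in HF-TAC and 516 ± 93.5 in aHF-SC (SD, n = 2 each; log2 difference -1.12, adjusted p = 0.00988). Unlike Mmp11, Furin did not pass in HF-TAC against qHF-SC.

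**Figure D3:**
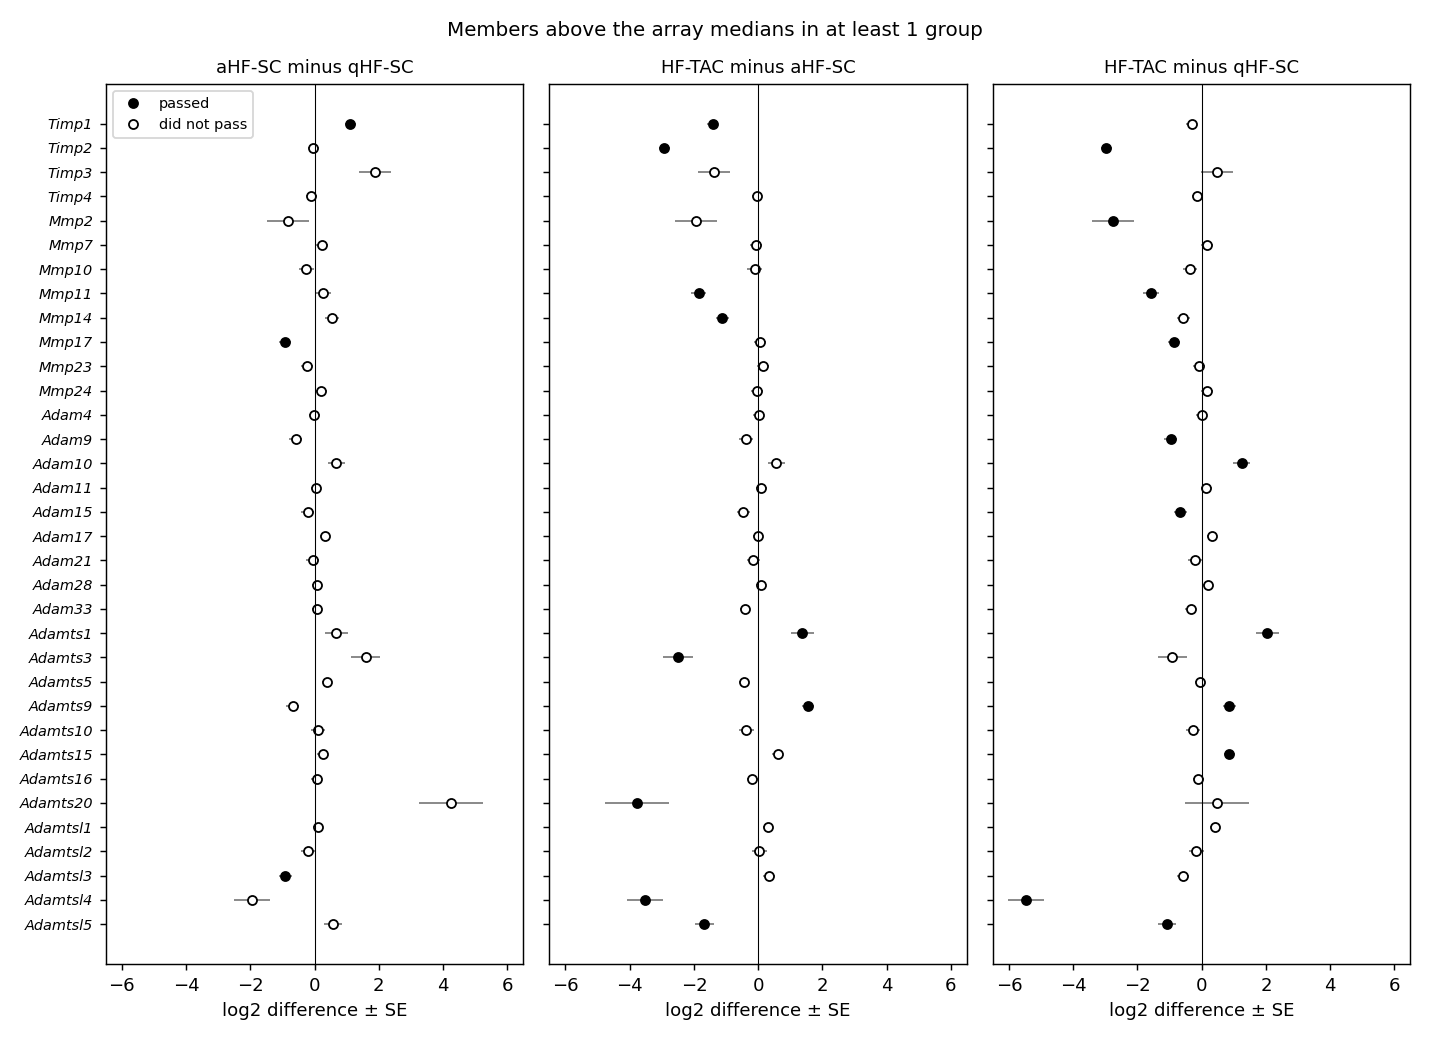
Log2 difference ± SE from the fit (x axis) for the 34 members above the array medians in at least 1 group, in aHF-SC minus qHF-SC, HF-TAC minus aHF-SC and HF-TAC minus qHF-SC. Filled points passed at an adjusted p of 0.05. Adamtsl4 lies farthest left in HF-TAC minus qHF-SC at -5.47, and Adamts20 has wide errors in all 3 panels.

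Of the 9 ADAM genes with a catalytic site and wide expression, 6 were above the medians in some group and 3 passed in HF-TAC against qHF-SC. Of these 3, 1 rose and 2 fell, where 13.4% of all genes rose and 12.9% fell. Adam10, the sheddase that makes the first membrane-side cut of Notch, stood at 814 and 1129 in HF-TAC, 711 and 586 in aHF-SC and 507 and 321 in qHF-SC. The 3 groups did not overlap. Adam10 rose 2.38-fold in HF-TAC against qHF-SC (1.25 ± 0.26 SE, adjusted p = 0.0119), while 0.57 ± 0.26 SE against aHF-SC (adjusted p = 0.213) and 0.68 ± 0.26 SE in aHF-SC against qHF-SC (0.207) did not pass. The call was lost without qHF-SC array 2 (0.92, adjusted p = 0.0701) or without HF-TAC array 2 (1.01, 0.062). Of its 3 other probe sets 2 gave the same sign and 1 did not, with differences from -0.12 to 1.67.

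Adam9, a membrane protease with several surface substrates, ran the other way, at 220 and 308 in HF-TAC, 349 and 329 in aHF-SC and 563 and 462 in qHF-SC. The groups did not overlap here either. Adam9 fell 1.96-fold in HF-TAC against qHF-SC (-0.97 ± 0.20 SE, adjusted p = 0.0118), and the call was lost without qHF-SC array 1 (-0.83, 0.0786). Adam15, known for its integrin-binding domain, stood at 201 and 172 in HF-TAC, 215 and 303 in aHF-SC and 300.1 and 293 in qHF-SC. Its HF-TAC arrays lay below all others. Adam15 fell 1.59-fold in HF-TAC against qHF-SC (-0.67 ± 0.20 SE, adjusted p = 0.045), and the 3 other probe sets had the same sign. This call did not hold without qHF-SC array 1 (0.163) or 2 (0.151) or HF-TAC array 1 (0.0666) or 2 (0.182).

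Adam17, the main sheddase of TNF and of EGF-receptor ligands, differed little. It stood at 283 and 304 in HF-TAC, 294 and 292 in aHF-SC and 257 and 213 in qHF-SC. The log2 difference of HF-TAC against aHF-SC was 0.00, with a 95% interval from -0.37 to 0.38 (adjusted p = 0.995), and the other comparisons gave 0.32 ± 0.16 SE each (adjusted p = 0.197 for HF-TAC and 0.323 for aHF-SC, both against qHF-SC). Adam11, Adam22 and Adam23, which lack protease activity, and the 16 testis or epididymis genes gave 0 passing members by limma, with 1 of these 19 at an unadjusted p under 0.05 in HF-TAC against qHF-SC and 0 in the other comparisons.

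**Figure D4:**
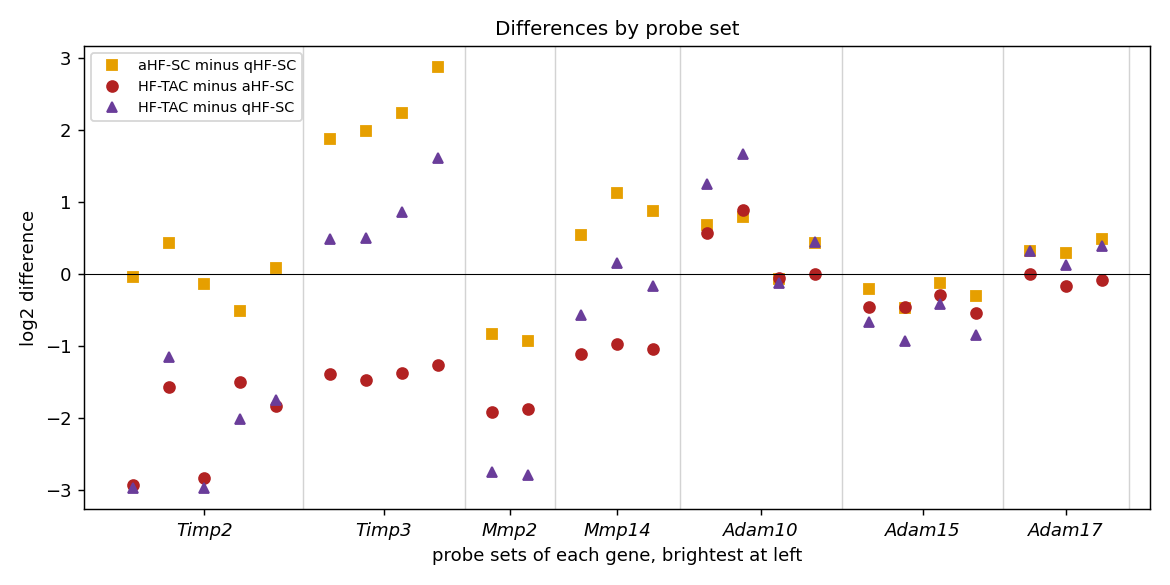
Log2 difference (y axis) for each probe set of 7 members that was above the array medians on some array, brightest at left within a gene, with squares for aHF-SC minus qHF-SC, circles for HF-TAC minus aHF-SC and triangles for HF-TAC minus qHF-SC. All circles of Timp2, Timp3, Mmp2 and Mmp14 lie below 0, while the dimmest probe sets of Adam10 lie nearer 0 than its brightest.

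Among the ADAMTS proteoglycanases, which cut versican, aggrecan and related proteins, 3 of 7 rose in HF-TAC against qHF-SC, where 13.4% of all genes rose. Adamts1 stood at 1236 and 576 in HF-TAC, 365 and 292 in aHF-SC and 244 and 173 in qHF-SC, with no overlap between groups. It rose 4.11-fold in HF-TAC against qHF-SC (2.04 ± 0.36 SE, adjusted p = 0.00534), a call that held whichever array was left out. Against aHF-SC it rose 2.59-fold (1.37 ± 0.36 SE, adjusted p = 0.0387), but that call was lost without either qHF-SC array or in a fit of the 4 arrays compared (0.0566 in each). It was lost as well without aHF-SC array 1 (0.0879) or 2 (0.181) or without HF-TAC array 1 (0.82, adjusted p = 0.0992); without HF-TAC array 2 the difference was 1.92. The 15 dissociation stress genes summed to 70418 and 58309 in HF-TAC, 80770 and 114892 in aHF-SC and 37879 and 31030 in qHF-SC. Of the 15, 0 passed in HF-TAC against aHF-SC by limma (7 at an unadjusted p under 0.05) and 10 rose in each group against qHF-SC. Their part in the Adamts1 and Timp1 results was not tested.

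Adamts9 was lowest in aHF-SC, at 67.3 and 50.9 in HF-TAC, 18.1 and 22.1 in aHF-SC and 30.0 and 34.4 in qHF-SC. The groups did not overlap, and aHF-SC was dim. Adamts9 rose 2.93-fold in HF-TAC against aHF-SC (1.55 ± 0.20 SE, adjusted p = 0.00244) and 1.82-fold against qHF-SC (0.87 ± 0.20 SE, adjusted p = 0.0161), the first size being uncertain against a dim group. Averaged over its 3 probe sets, of which 2 were dim on all arrays, the differences were 0.66 and 0.35, and the second did not pass (0.128). The second was also lost without qHF-SC array 1 (0.0971) or 2 (0.0529) or without HF-TAC array 1 (0.0729). Adamts15 was close to the medians, at 27.9 and 26.2 in HF-TAC, 15.6 and 20.3 in aHF-SC and 15.2 and 14.6 in qHF-SC, and dim in both stem cell groups, so that sizes are uncertain. It rose 1.82-fold against qHF-SC (0.86 ± 0.17 SE, adjusted p = 0.00975; 0.0614 without qHF-SC array 2) and its 0.60 against aHF-SC just missed (adjusted p = 0.0538), passing with quantile normalization (0.0495) and on averaging each gene's probe sets (0.0427).

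Adamts20, the gene altered in belted mice, whose coat has a white band, stood out in aHF-SC. It stood at 16.2 and 27.8 in HF-TAC, 405 and 206 in aHF-SC and 52.8 and 4.39 in qHF-SC. The aHF-SC arrays lay above all others, and the qHF-SC replicates lay 12-fold apart. HF-TAC replicate 1 and qHF-SC replicate 2 were below their array medians, so the sizes are uncertain. Adamts20 fell 13.6-fold in HF-TAC against aHF-SC (-3.77 ± 1.01 SE, adjusted p = 0.0421), while the aHF-SC against qHF-SC difference of 4.25 ± 1.01 SE missed the threshold (adjusted p = 0.0548). The fall missed the threshold on averaging each gene's probe sets (0.0504), without aHF-SC array 1 (0.176) or 2 (0.107) or without HF-TAC array 1 (0.144) or 2 (0.0926). The difference between the stem cell groups passed with 75th percentile scaling (0.0239) or without qHF-SC array 1 (6.04, 0.00421). Belted mice lack pigment cells in the band, and the 7 melanocyte markers were therefore read: they summed to 562 and 741 in HF-TAC, 485 and 556 in aHF-SC and 1834 and 2009 in qHF-SC. The qHF-SC sum was led by Mitf, the 1 marker of the list that passed between the stem cell groups (-3.27 in aHF-SC against qHF-SC). The list's median log2 difference was 0.39 there and 0.48 in HF-TAC against aHF-SC. In HF-TAC against qHF-SC the median was 1.09, where Dct, Mlana and Tyr rose and Mitf fell. Of the 7, 3 were dim in qHF-SC. The part of pigment cells in the Adamts20 result was not tested.

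Adamts3, which removes the N-terminal propeptide of procollagens, also peaked in aHF-SC, at 10.8 and 13.0 in HF-TAC, 75.5 and 59.1 in aHF-SC and 38.7 and 12.8 in qHF-SC. The aHF-SC arrays lay above all others, and HF-TAC was dim. Adamts3 fell 5.64-fold in HF-TAC against aHF-SC (-2.50 ± 0.46 SE, adjusted p = 0.00993; 0.0557 without aHF-SC array 1), a size that is uncertain against a dim group and was -1.28 averaged over its 2 probe sets. The aHF-SC against qHF-SC difference of 1.59 ± 0.46 SE missed (adjusted p = 0.0961) but passed without qHF-SC array 1 (2.39, 0.00752). In HF-TAC against qHF-SC it was -0.91 ± 0.46 SE (adjusted p = 0.208), and -1.71 without qHF-SC array 2 (0.00785). Of 8 muscle markers 3 (Acta2, Tagln and Myl9) fell in HF-TAC against aHF-SC and rose in aHF-SC against qHF-SC, and the list summed to 511 and 717 in HF-TAC, 5599 and 2984 in aHF-SC and 464 and 540 in qHF-SC. Dermal papilla markers summed to between 3113 and 5894 in HF-TAC, 8821 and 10610 in aHF-SC and 5193 and 6298 in qHF-SC, a sum led by Sostdc1, with 5, 6 and 6 of the 8 dim in the same groups. The part of these cells in the higher aHF-SC values of Timp1, Timp3, Mmp14, Adamts3 and Adamts20 was not tested.

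The steepest difference of all members was in an ADAMTS-like gene. Adamtsl4, whose protein binds fibrillin microfibrils, stood at 37.5 and 22.8 in HF-TAC, 180 and 618 in aHF-SC and 1021 and 1637 in qHF-SC. The 3 groups did not overlap, although the aHF-SC replicates lay 3.43-fold apart. Adamtsl4 fell 44.2-fold in HF-TAC against qHF-SC (-5.47 ± 0.55 SE, adjusted p = 0.000524) and 11.4-fold against aHF-SC (-3.52 ± 0.55 SE, adjusted p = 0.00533). The HF-TAC arrays lay near the array medians, so the sizes are uncertain. Both calls held whichever array was left out, with the second at -4.40 without aHF-SC array 1 and -2.63 without array 2. The aHF-SC against qHF-SC difference was -1.95 ± 0.55 SE and did not pass (adjusted p = 0.0912), except without aHF-SC array 2 (-2.84, 0.0251).

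Adamtsl5, another fibrillin-binding relative, stood at 25.7 and 23.01 in HF-TAC, 56.2 and 107 in aHF-SC and 52.4 and 51.1 in qHF-SC. The HF-TAC arrays lay below all others. Adamtsl5 fell 3.18-fold against aHF-SC (-1.67 ± 0.28 SE, adjusted p = 0.00736; -1.03 averaged over its 2 probe sets, adjusted p = 0.0279) and 2.13-fold against qHF-SC (-1.09 ± 0.28 SE, adjusted p = 0.0273). The second was -0.56 on that average (0.144), the other probe set giving -0.03, and was lost without qHF-SC array 1 (0.113) or 2 (0.109) or without HF-TAC array 1 (0.0637) or 2 (0.108). Adamtsl3, or punctin-2, was at 28.1 and 29.2 in HF-TAC, 20.7 and 24.9 in aHF-SC and 36.6 and 50.0 in qHF-SC, with no overlap between groups. It fell 1.88-fold in aHF-SC against qHF-SC (-0.91 ± 0.20 SE, adjusted p = 0.0414), a call lost without qHF-SC array 2 (0.235) or without aHF-SC array 1 (0.181) or 2 (0.0908). In HF-TAC against qHF-SC it gave -0.58 ± 0.20 SE (adjusted p = 0.071), and -0.80 without qHF-SC array 1 (0.0495). Adamtsl1 and Adamtsl2 did not pass (adjusted p from 0.101 to 0.953).

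The other 15 members above the medians in some group, apart from Adam17 and Timp3, lay between 16.8 and 76.5 on every array and did not pass in any comparison through their brightest probe set. They were Mmp7, Mmp10, Mmp23, Mmp24, Adam4, Adam11, Adam21, Adam28, Adam33, Adamts5, Adamts10, Adamts16, Adamtsl1, Adamtsl2 and Timp4. Adamts5, the aggrecanase next to Adamts1 in gene order, stood at 30.7 and 28.8 in HF-TAC, 42.8 and 38.1 in aHF-SC and 32.5 and 29.0 in qHF-SC (adjusted p from 0.102 to 0.879). Its 4 probe sets did not give 1 answer: a second one above the medians stood at 35.2 and 37.6 in HF-TAC, 54.0 and 45.1 in aHF-SC and 16.3 and 22.7 in qHF-SC. For that probe set of Adamts5 the log2 difference of aHF-SC against qHF-SC was 1.36, against 0.39 for the brightest, and that of HF-TAC against qHF-SC was 0.92, against -0.05. Another, dim on all arrays, gave 0.63 and 0.59.

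Genes that control or serve these proteases were read from 3 lists. Over all genes, 8.97% rose and 8.57% fell in HF-TAC against aHF-SC, 13.4% and 12.9% against qHF-SC, and 3.07% and 3.21% in aHF-SC against qHF-SC. Of 30 measured regulators and partners, 3 rose and 8 fell in HF-TAC against aHF-SC (median log2 difference -0.17), 4 rose and 8 fell against qHF-SC (0.03), and 3 rose and 3 fell in aHF-SC against qHF-SC (0.19). Reck, a membrane-anchored MMP inhibitor, averaged 13.2 ± 1.11 in HF-TAC, 35.8 ± 3.76 in aHF-SC and 13.0 ± 2.24 in qHF-SC (SD, n = 2 each), and was dim outside aHF-SC, so that sizes are uncertain. It fell in HF-TAC against aHF-SC (-1.44, adjusted p = 0.00241) and rose in aHF-SC against qHF-SC (1.47, adjusted p = 0.00851), the same signs as Timp1. Bmp1, the procollagen C-proteinase, averaged 150.5 ± 7.60 in HF-TAC, 324 ± 54.7 in aHF-SC and 136 ± 51.7 in qHF-SC; it fell in the first of these comparisons (-1.10, adjusted p = 0.0313) and rose in the second (1.30, 0.0369). The iRhom genes, which carry ADAM17 to the surface, parted in HF-TAC against aHF-SC: Rhbdf2 rose (0.70, adjusted p = 0.0154) and Rhbdf1 fell (-1.21, adjusted p = 0.00591). Of the listed tetraspanin genes of ADAM10, only Tspan5 rose there (0.77, adjusted p = 0.0191) and only Tspan17 fell (-1.39, adjusted p = 0.013). In HF-TAC against qHF-SC Tspan5 and Tspan33 rose and Tspan17 fell.

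Of 26 measured surface proteins known to be shed, 5 rose and 4 fell in HF-TAC against aHF-SC (median log2 difference 0.00), 4 rose and 7 fell against qHF-SC (-0.06), and 3 rose and 1 fell in aHF-SC against qHF-SC (-0.08). Beside these stand shares over all genes of 8.97% and 8.57%, 13.4% and 12.9%, and 3.07% and 3.21%. Hbegf, an EGF-receptor ligand released by ADAMs, averaged 492 ± 135 in HF-TAC, 437 ± 72.8 in aHF-SC and 82.9 ± 59.8 in qHF-SC (SD, n = 2 each). It rose in HF-TAC (2.76, adjusted p = 0.00527) and in aHF-SC (2.61, adjusted p = 0.0256), both against qHF-SC. Notch3 rose in all 3 comparisons: 0.98 in HF-TAC against aHF-SC (adjusted p = 0.00841), 1.84 against qHF-SC (0.000392) and 0.85 in aHF-SC against qHF-SC (0.0343). Notch1 and Notch2 were not among the genes that passed. App, Efna5, Sdc4 and Tnfrsf1a fell in HF-TAC against both stem cell groups, and Cx3cl1, Jag1 and L1cam against qHF-SC alone. Ereg fell in aHF-SC against qHF-SC and rose in HF-TAC against aHF-SC. Of 22 measured matrix substrates 1 rose and 11 fell in HF-TAC against aHF-SC (median log2 difference -1.08), 3 rose and 9 fell against qHF-SC (-0.27), and 6 rose and 1 fell in aHF-SC against qHF-SC (0.11), beside the same shares over all genes. Vcan, which encodes the versican that Adamts1, Adamts9, Adamts15 and Adamts20 are known to cut, averaged 32.1 ± 6.82 in HF-TAC, 17.4 ± 5.85 in aHF-SC and 14.0 ± 1.03 in qHF-SC (SD, n = 2 each). It rose in HF-TAC against qHF-SC (1.19, adjusted p = 0.0138), was dim in both stem cell groups, so that the size is uncertain, and gave 0.91 against aHF-SC (adjusted p = 0.0529). Vcan is also 1 of the 8 dermal papilla markers, of which Prom1 rose too and Hhip fell in HF-TAC against qHF-SC. The part of such cells in the Vcan, Adamts1, Adamts9 and Adamts15 results was not tested.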

How the data were processed

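RNA of 6 sorted samples (2 arrays a group, 2 µg of RNA each) was measured on Affymetrix arrays. The authors deposited intensity values per probe set on a linear scale, from 3.83 to 31188; RMA is named in the submitters' processing notes, without a version; the probe set definition used and how values came to be linear are not stated there. RMA compresses large and dim differences, and its quantile step assumes alike overall distributions.

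Intensities were put on the log2 scale. Of 45101 probe sets 64 controls were left out; 34945 carried 1 gene symbol in GEO's platform annotation, 932 several and 9160 none. A gene was read through its probe set of highest mean log2 intensity among those paired with it alone; the 70 members had 124 such probe sets, and all 70 matched a RefSeq gene. limma 3.58.1 (R 4.3.3; lmFit, contrasts.fit, eBayes) was fitted to 18193 genes, two-sided, with 3 residual and 4.25 prior degrees of freedom. It was run on simulated data drawn with its own fitted spread and independent arrays. Such a run cannot show whether the p-values hold for these arrays. Precision is limited by 2 arrays a group. Members named with values were the 10 largest rises and falls per comparison past the threshold and Mmp2, Mmp9, Mmp14, Adam9, Adam10, Adam17, Adamts1 and the 4 Timp genes; Adamts5 and the genes named from the 3 lists were chosen after their values were seen. Members and lists were chosen with earlier results of these data known. Alternatives were another probe set rule, a dim filter, other scalings, a replicate block, other fits and each array left out.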

Additional observations from a re-analysis of the deposited data

How the results depend on the processing

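Of the 43 differences of named members followed through the settings, 0 changed direction; those near 0, such as Timp2 between the stem cell groups, were not among them. Of 25 passing differences, 19 passed under all settings other than left-out arrays in which the gene was tested, and 10 passed whichever array was left out: Timp1, Timp2, Mmp11, Adamts9, Adamtsl4 and Adamtsl5 in HF-TAC against aHF-SC, and Timp2, Mmp11, Adamts1 and Adamtsl4 in HF-TAC against qHF-SC. With dim genes left out only 12 members were tested. Then 1 rose and 4 fell in HF-TAC against aHF-SC. In HF-TAC against qHF-SC 2 rose, and Timp2, Mmp2, Mmp11, Adam9, Adam15 and Adamtsl4 still fell. In aHF-SC against qHF-SC 0 rose and 0 fell by limma, with 3 and 2 at an unadjusted p under 0.05. Of the 9096 genes then tested, 5.4% rose and 4.97% fell in that last comparison. The rises in aHF-SC against qHF-SC numbered 3 on averaging each gene's probe sets and 3 with 75th percentile scaling, and the rises in HF-TAC against aHF-SC 1 in a fit of the 4 arrays compared. With the replicate number as a block, 1 member fell in aHF-SC against qHF-SC, Mmp17 missing the threshold (-0.93, adjusted p = 0.053), and Adam15 missed it in HF-TAC against qHF-SC (-0.67, 0.0696), where 7 members then fell; same-numbered arrays deviated together at r of 0.06, 0.08 and -0.13, and the labels do not say that a number is shared, so this is no paired result. With 1 array left out in turn, aHF-SC against qHF-SC gave 0 to 3 rises and 0 to 2 falls (3 to 6 at an unadjusted p under 0.05 where 0 passed), HF-TAC against aHF-SC 1 to 2 rises, and HF-TAC against qHF-SC 1 to 4 rises and 4 to 8 falls. Counts over all genes fell too: without qHF-SC replicate 2, 0.297% of genes rose and 0.385% fell in aHF-SC against qHF-SC. Dim signals, 2 arrays a group and, for 14 of the 25 differences, a single probe set limit all of this.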
